A study of Mus musculus with 10 samples.

Results

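Gene expression in lines selected in dasatinib up to 16x the IC90 (dose step 16x) was compared with that of the parental line alone, across all genes. The comparison holds 5 of the 10 RNA libraries of the series, namely dasatinib 16x A, B and C and parental A and B, taken by their labels. Every library comes from 1 mouse cell line of Philadelphia chromosome-positive acute lymphoblastic leukaemia that carries BCR-ABL1 in its p185 form. The dasatinib lines were plated with drug and, once they had grown out, could be frozen, rested without drug or plated again at the next dose. Parental libraries carry the treatment label none, with no solvent and no dose step, so passage in culture and exposure to dasatinib cannot be told apart within this comparison. For that reason the single library of the line carried in the solvent DMSO to step 16x is given beside many results, and that of the DMSO 1x line and the 3 dasatinib 1x libraries beside some. The titles call the dasatinib libraries biological replicates and the parental ones replicates, and nothing states separate cultures, so the p-values cover no more than the variation among these samples, which may be technical. Whether drug was present at harvest is not given in the sources used here.

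BCR-ABL1 is a fusion in which the tyrosine kinase ABL is always on. In B-lineage leukaemia it takes over signals that normally come from the interleukin-7 receptor and the pre-B cell receptor, among them phosphorylation of the transcription factor STAT5. Dasatinib blocks ABL and the SRC family kinases, and cells grown in rising doses can come to tolerate it through changes of the kinase itself, of other signalling routes, or of drug transport.

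Total counts were 29049760 and 41349084 in parental A and B and ran from 40648908 to 45813092 in the dasatinib 16x libraries. Levels are CPM, counts scaled to a common library total with TMM factors, and log2 changes are dasatinib 16x minus parental, given ± SE. The parental libraries lay closer to each other than the dasatinib 16x libraries did. The SD of the log2 difference across genes was 0.249 between the parental libraries, 0.419 to 0.485 between pairs of dasatinib 16x libraries, and 0.744 to 0.764 between a library of each group. Counts of parental A and B differed by 1.9 times the sampling variance, and those of dasatinib 16x pairs by 11.4 to 16.8 times. Parental A and B were kept as 2 samples, though these values do not show that they are separate cultures.

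Of 12273 genes tested, 3250 (26.5%) were called at an adjusted p of at most 0.05 by edgeR's quasi-likelihood test, 1685 higher (13.7%) and 1565 lower (12.8%) in the dasatinib 16x lines, and 4708 (38.4%) had an unadjusted p under 0.05. Most calls were small: the median absolute log2 change of the called genes was 0.29, and 81.1% changed less than 2-fold. Large changes leaned downward, with 259 genes (2.11%) at least 2-fold higher and 355 (2.89%) lower, 107 and 217 at 4-fold, and 29 and 155 at 8-fold. The 3 dasatinib 16x libraries lay beyond both parental libraries for each of the 3250 called genes and for 6770 (55.2%) of all genes tested. Without parental A the count of calls was 1601 (832 higher and 769 lower), and without parental B it was 1401 (732 and 669). Counts of called list members given below are to be read beside these shares and falls over all genes. No list was tested as a set. In the same fit 4354 genes (35.5%) were called against DMSO 16x and 1687 (13.7%) against dasatinib 1x.

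**Figure D1:**
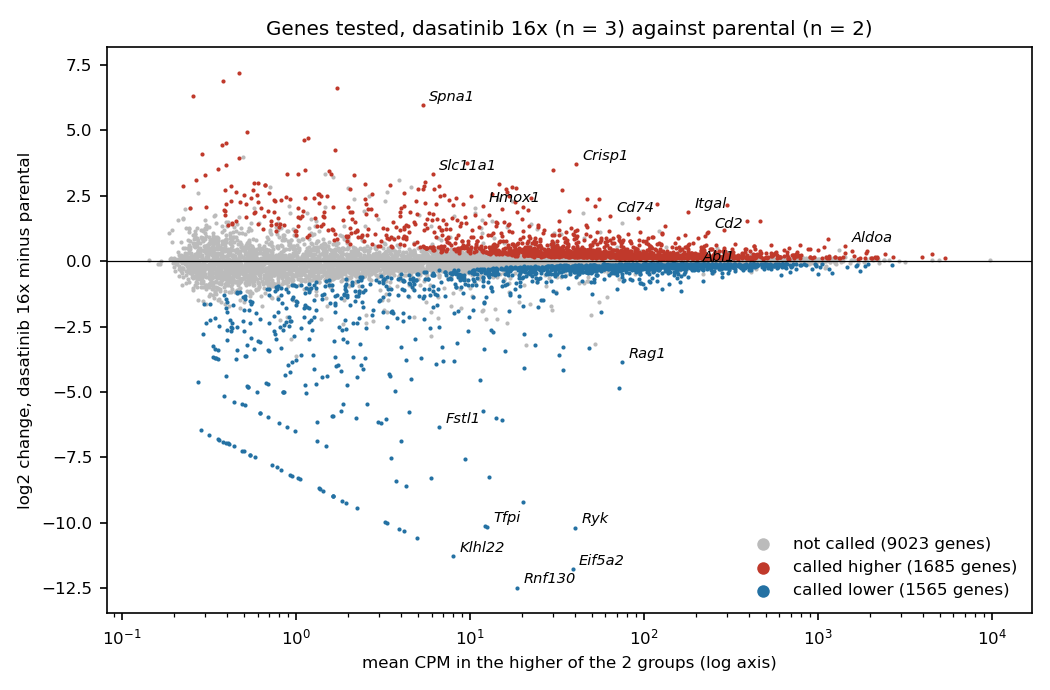
Each point is a tested gene, with its mean CPM in the higher of the 2 groups on a log axis and its log2 change (dasatinib 16x minus parental) on the vertical axis. Called genes are red (1685 higher) or blue (1565 lower), and 155 called genes are at least 8-fold lower against 29 at least 8-fold higher.

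The highest changes belonged to genes that were low in the parental line. Spna1, the erythroid alpha chain of spectrin, stood at 0.0341 and 0.12 CPM in parental A and B and at 8.33, 5.12 and 2.67 CPM in dasatinib 16x A, B and C (log2 change 5.95 ± 0.837, adjusted p = 0.00309). It was at 0 in DMSO 16x and already at 6.76 to 10.7 CPM in dasatinib 1x, and its call was lost under limma-voom (adjusted p = 0.0828). Slc11a1, a metal ion transporter of phagosomes, was at 0.511 and 0.67 CPM in the parental line and at 6.66, 6.64 and 4.96 CPM in the dasatinib 16x lines (log2 change 3.34 ± 0.232, adjusted p = 2.35e-06), against 0.858 CPM in DMSO 16x. Micall2 (1.6 and 2.13 against 12.1, 12.8 and 18.8 CPM) and B3galt5, a galactosyltransferase (2.59 and 2.3 against 15.8, 12.5 and 24.0 CPM), rose likewise. Their adjusted p were 0.00111 and 0.000331, and DMSO 16x held 1.15 CPM of Micall2 and 3.06 CPM of B3galt5. All dasatinib 16x values of these 4 genes lay above the DMSO 16x value. Lack of overlap with the parental line was a condition for naming them.

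For other genes among the highest, DMSO 16x stood near the dasatinib lines. The chemokine receptor gene Ccr2 was at 2.79 and 2.51 CPM in the parental line and at 22.1, 13.5 and 19.6 CPM in dasatinib 16x (log2 change 2.80 ± 0.219, adjusted p = 2.97e-05), but at 20.3 CPM in DMSO 16x (log2 change against it -0.14, adjusted p = 0.689). Ncf1, a cytosolic subunit of the NADPH oxidase, was at 5.76 and 4.69 CPM against 45.6, 24.9 and 30.9 CPM, with 36.7 CPM in DMSO 16x. With the parental and DMSO libraries taken as 1 class, Ccr2 and Ncf1 were no longer called (adjusted p = 0.262 for each).

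Among the other genes of the 12 highest, Trpa1 encodes a cation channel, Enam an enamel matrix protein and Igj the joining chain of immunoglobulin. Their log2 changes were 3.04, 2.74 and 2.74, and those against DMSO 16x were 1.15, 2.19 and 1.62. Spread between the dasatinib lines was wide for Crisp1 and Gpr12. Crisp1, a gene of a cysteine-rich secretory protein, rose from 3.37 and 2.82 CPM in the parental line to 64.9, 20.9 and 36.2 CPM. Gpr12, an orphan G protein-coupled receptor gene, rose from 0.443 and 0.909 to 7.78, 16.3 and 4.65 CPM. DMSO 16x held 8.42 CPM of Crisp1 and 0.912 CPM of Gpr12 (log2 changes against it 2.27 and 3.39). Their adjusted p of 0.00839 and 0.0136 became 0.0623 and 0.0866 without parental A, 0.0812 and 0.0699 without parental B, and 0.0964 and 0.12 under limma-voom.

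At the other end, 11 genes with a parental mean of at least 5 CPM were at or below a mean of 0.1 CPM in the dasatinib 16x lines, while the reverse held for Spna1 alone. Rnf130, a RING finger gene, was at 18.3 and 18.9 CPM in the parental line and had 0 counts in all 3 dasatinib 16x libraries, at least 797-fold lower by a floor of 3 counts over the group (adjusted p = 0.00123). Klhl22, an adaptor of a cullin ubiquitin ligase, also had 0 counts, against 8.38 and 7.63 CPM, at least 339-fold lower (adjusted p = 0.000255). Eif5a2, a form of the translation factor eIF5A, had 1 count against 39.4 and 38.2 CPM, a ratio of 4970 (95% counting interval 891 to 196000), with an adjusted p of 0.000503. Ryk, a WNT co-receptor, was at 0, 0.0735 and 0.0239 CPM against 40.5 and 39.7 CPM (adjusted p = 0.000672). Intervals and bounds cover counting error only, and in bulk RNA fewer cells with a transcript and less of it per cell cannot be told apart.

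These 11 genes differed in where the other lines stood. Gnai1, an inhibitory G protein subunit, Klhl22 and Fstl1, a secreted follistatin-like protein, were already at or below 0.127 CPM in every dasatinib 1x library, while Rnf130 was at 4.5 to 10.3, Eif5a2 at 5.28 to 14.7, and Aes, a Groucho-related corepressor, at 10.4 to 20.1 CPM there. Tfpi, an inhibitor of coagulation, had 1 count in the dasatinib 16x lines against 12.2 and 12.8 CPM in the parental line, a ratio of 1610 (95% counting interval 289 to 63900), and was at 26.9 CPM in DMSO 16x. Fstl1 likewise stood at 0.0477 to 0.132 CPM in dasatinib 16x, 6.64 and 6.65 CPM in the parental line and 100.1 CPM in DMSO 16x. By contrast Gng12, a G protein gamma subunit (1 count, ratio 1550, interval 278 to 61400), and Phlda3, a p53-induced repressor of AKT (2 counts, ratio 378, interval 104 to 3140), were also near 0 in DMSO 16x, at 0 and 0.0805 CPM. The rest of the 11 were also below their parental mean in DMSO 16x. Gnai1 stood there at 0.322 CPM (parental mean 12.9), Klhl22 at 0.885 (8.0), Rnf130 at 0.992 (18.6) and Eif5a2 at 2.25 CPM (38.8). Aes was at 3.89 (20.2), 2810025M15Rik at 1.61 (9.38) and Ryk at 13.6 CPM (40.1). Of the 12 lowest genes, Celsr1, a cadherin of planar polarity (15.6 and 14.9 against 0.242, 0.343 and 0.0954 CPM), and Prkar2a, a regulatory subunit of protein kinase A (14.2 and 13.9 against 0.0659, 0.588 and 0.0239 CPM), kept a few reads. The call of Eif5a2 was lost under limma-voom with a weight per group (adjusted p = 0.0632), an alternative added after seeing the data. The other 11 of the 12 lowest stayed called under every alternative but the 2-fold threshold.

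**Figure D2:**
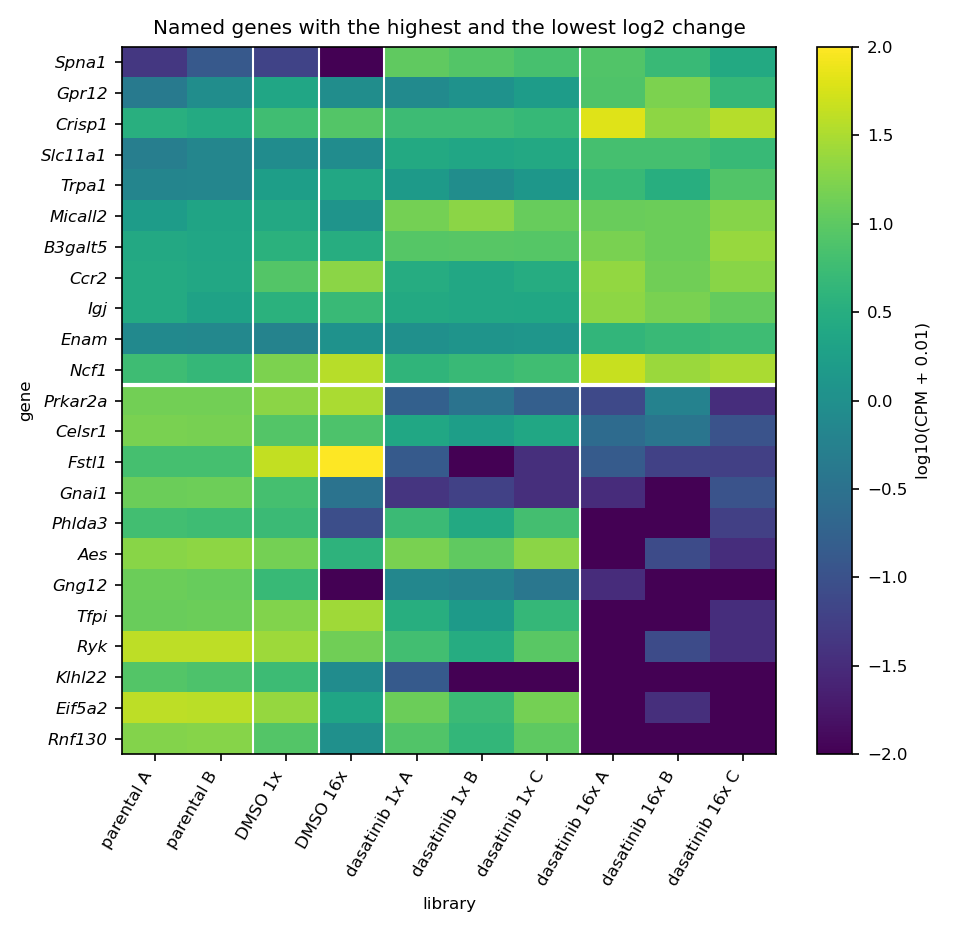
Rows are 11 of the 12 highest and the 12 lowest genes by log2 change among called genes of at least 5 CPM, columns the 10 libraries, and colour log10(CPM + 0.01). The rows of the 12 lowest genes are at or below 0.588 CPM in the 3 dasatinib 16x columns, and Fstl1 is brightest in DMSO 16x (100.1 CPM).

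Both groups carried B-lineage transcripts. Of 8 defining B-lineage markers, 7 were at 113 CPM or more in the mean of each group, and the summed level was 2686 to 2712 CPM in dasatinib 16x against 2929 and 2942 CPM in the parental line. Ebf1, an early B-cell factor, was nearly absent from both, at 0.239 and 0.717 CPM in the parental line and 0.0954 to 0.33 CPM in dasatinib 16x. Lower calls went to 3 of the 8, among them Cd79b (-0.20 ± 0.0386, adjusted p = 0.0518 without parental A) and Pax5 (-0.41 ± 0.0806, adjusted p = 0.0668 without parental B). The surrogate light chain genes Igll1 (563 CPM in the parental line, 542 CPM in dasatinib 16x) and Vpreb1 (512 and 502 CPM) were not called.

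Markers of other cells were low, with some exceptions. Of 13 T and NK markers, 4 were tested, and Cd3d, Cd3e and Cd3g were not expressed enough to test. The list summed to 257 to 273 CPM in dasatinib 16x against 131 and 136 CPM in the parental line. Most of that sum was the adhesion receptor gene Cd2 alone, so the sum does not stand for T and NK transcripts as a set. Cd2 was at 105 and 109 CPM in the parental line and 230.1, 228 and 243 CPM in dasatinib 16x (log2 change 1.12 ± 0.0459, adjusted p = 7.43e-08 by edgeR). Tcf7, a factor of T-cell precursors, was at 8.35 and 9.16 against 18.7, 12.1 and 13.5 CPM (adjusted p = 0.0112, and 0.0988 without parental A or 0.0678 without parental B). Erythroid and megakaryocytic markers summed to 20.2 to 35.8 CPM in dasatinib 16x against 5.90 and 5.93 CPM in the parental line, carried by Spna1 and the globin gene Hbb-b1. Hbb-b1 rose from 4.4 and 4.04 to 26.4, 24.6 and 16.1 CPM, with 34.4 CPM in DMSO 16x, while Gata1 was too low to test. Myeloid markers summed to 13.5 to 21.7 CPM in dasatinib 16x against 10.0 and 11.2 CPM in the parental line. Fcgr3, an IgG receptor, rose within that list from 1.91 and 1.12 to 10.5, 6.64 and 5.51 CPM (adjusted p = 0.00069 by edgeR). Itgam, an integrin chain of myeloid cells, fell from 0.508 to 0.188 CPM, a call lost under 6 alternatives. Mature B and plasma cell markers summed to 193 to 210 CPM in dasatinib 16x, 144 and 145.5 CPM in the parental line and 299.5 CPM in DMSO 16x. Within that list Xbp1, a factor of secretory cells, rose from 107.6 to 152.5 CPM in dasatinib 16x, and Igj from 2.41 to 16.0 CPM. Hbb-b1 and Xbp1 were not called with the parental and DMSO libraries as 1 class (adjusted p = 0.493 and 0.861). Fibroblast markers did not exceed 0.215 CPM in sum. What part these transcripts have in other results was not tested.

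Rag1 and Rag2, the recombinase that joins antigen receptor segments, were lower. Rag1 stood at 73.8 and 76.0 CPM in the parental line and at 8.66, 3.72 and 2.98 CPM in dasatinib 16x A, B and C (log2 change -3.86 ± 0.413, adjusted p = 0.00208). DMSO 16x was between them at 20.4 CPM, and the log2 change against it was -1.98 (adjusted p = 0.0328). Rag2 was at 22.6 and 24.8 CPM against 4.97, 1.81 and 0.93 CPM (adjusted p = 0.0148), with 4.64 CPM in DMSO 16x. Its adjusted p was 0.0668 without parental A, 0.083 without parental B and 0.0754 with only the 5 libraries. The other 5 genes of this list, Dntt and the surrogate light chain genes, were not called. Dntt, the template-free polymerase of junctions, varied between the dasatinib lines (131, 45.4 and 48.9 CPM, parental 26.8 and 27.9 CPM), and without dasatinib 16x A it was called higher (adjusted p = 2.55e-05), as it was by DESeq2 (0.0224).

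Transcription factors of the B lineage leaned lower: 12 of 23 tested were called lower and 3 higher, with a median log2 change of -0.25, beside -0.00165 over all genes. Ikzf3, which encodes Aiolos, fell from 148 and 149 to 101.5, 107 and 104 CPM (log2 change -0.51 ± 0.0416, adjusted p = 7.52e-06), and stood at 196 CPM in DMSO 16x. Bcl11a (162 to 132 CPM) and Runx1 (150.4 to 127.5 CPM) fell by 0.29 and 0.24 on the log2 scale. Lef1, a WNT-responsive factor of early lymphocytes, fell from 118 to 81.8 CPM and Myb from 409 to 322 CPM, and DMSO 16x was lower still for Lef1 (63.2 CPM). Irf8 rose from 349 to 461 CPM (log2 change 0.40 ± 0.0494), near DMSO 16x (458 CPM). Lower calls numbered 8 without parental A, 6 without parental B, and 6 with the parental and DMSO libraries as 1 class. Under that last setting Lef1 (adjusted p = 0.321), Myb (0.0597) and Irf8 (0.0888) were not called.

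Of 19 genes of pre-B receptor signalling, 7 were called higher and 3 lower. The largest rises were those of Lat2, an adaptor of the LAT family (5.55 and 5.55 against 14.9, 15.4 and 16.7 CPM, log2 change 1.49 ± 0.0889), and of Bank1, a B-cell scaffold protein (25.8 and 24.0 against 58.3, 50.9 and 51.7 CPM, log2 change 1.11 ± 0.0679). DMSO 16x exceeded the dasatinib lines for Lat2 (46.7 CPM) and was near them for Bank1 (47.8 CPM). The phosphatase gene Ptpn6 rose from 205 and 202.5 to 277, 263 and 264 CPM, with 308 CPM in DMSO 16x. Neither Ptpn6 (adjusted p = 0.537) nor Lat2, whose log2 change turned to -0.29 (0.816), was called with the parental and DMSO libraries as 1 class. Syk, the kinase next to the receptor, was at 0.341 and 0.335 CPM in the parental line and 0.143 to 0.318 CPM in dasatinib 16x, and Btk (218 against 208 CPM) was not called.

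Abl1, whose kinase dasatinib inhibits, was at 202.5 and 198 CPM in the parental line and 179, 179 and 176 CPM in dasatinib 16x (log2 change -0.17 ± 0.0307, adjusted p = 0.00181). DMSO 16x stood at 177 CPM, and with the parental and DMSO libraries as 1 class Abl1 was not called (adjusted p = 0.0953). Reads of Abl1 itself and of the fusion cannot be told apart in counts per gene. Of 14 dasatinib target genes tested, 4 were called higher and 3 lower, where 13.7% and 12.8% of all genes tested were. The SRC family kinase gene Fgr rose from a mean of 0.0989 to 1.03 CPM (log2 change 3.34 ± 0.46), with 1.48 CPM in DMSO 16x. Lck, of the same family, rose from 17.2 and 18.0 to 26.6, 23.1 and 27.3 CPM, while Epha2, a receptor kinase, fell from 3.51 and 3.63 to 0.879, 1.15 and 0.811 CPM, with DMSO 16x at 22.9 and 0.59 CPM. With the DMSO libraries added to the reference, these 3 were not called (adjusted p = 0.53, 0.0646 and 0.0718). The kinase genes Fyn, Btk, Csk, Abl2, Blk, Src and Yes1 were not called.

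Feedback and survival genes induced by STAT5 were called higher in 8 of 14 and lower in 2 (median log2 change 0.11). Against DMSO 16x, 6 of the 14 were called higher and 7 lower (median -0.02), where 18.8% and 16.6% of all genes were. Cish and Socs1 encode inhibitors that STAT5 induces against its own receptors. Socs1 was at 15.4 and 13.7 CPM in the parental line and 24.1, 22.8 and 23.2 CPM in dasatinib 16x (log2 change 0.68 ± 0.0802, adjusted p = 0.000101), and at 13.5 CPM in DMSO 16x. Cish rose from 35.9 and 35.9 to 72.6, 54.6 and 63.5 CPM (log2 change 0.82 ± 0.108), with 37.1 CPM in DMSO 16x. The cyclin gene Ccnd2 rose from 508 and 499 to 744, 803.5 and 801.5 CPM, but DMSO 16x was higher still (922 CPM), and with the DMSO libraries in the reference it was not called (adjusted p = 0.371). Of the 8 higher calls, 3 were left without parental A and 3 without parental B. Those lost were smaller rises, such as Pim1, a survival kinase (252.5 against 312 CPM, adjusted p = 0.0609 without parental A and 0.118 without parental B), and Osm, a cytokine (16.4 against 21.2 CPM, 0.0696 and 0.152). The palindrome TTCNNNGAA, the core of STAT sites, was searched on both strands of the 250 bases before the start. It was in 2306 (7.02%) of 32851 promoters of the GRCm38.p6 RefSeq table and in 2197 (8.13%) of its 27025 genes. Of the 10 STAT5-list genes with an entry 1 held it, Socs3, which was not called higher. It was in 0 of the 5 higher-called ones, too few genes to compare with that share.

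The receptors themselves moved both ways, with 8 of 21 cytokine receptor and JAK-STAT genes called higher and 5 lower. Csf2rb2 and Csf2rb, beta subunits of the interleukin-3 and related receptors, rose together. Csf2rb2 went from 19.7 and 18.8 to 36.2, 40.8 and 40.7 CPM (log2 change 1.03 ± 0.0857, adjusted p = 9.25e-06), against 16.4 CPM in DMSO 16x, and Csf2rb from 115 and 114 to 163, 188.5 and 195 CPM. These are close paralogs, and how their shared reads were counted is not given. Il4ra, the interleukin-4 receptor alpha chain, rose from 27.3 to 41.3 CPM. Il7r, the receptor chain that drives growth of B-cell precursors, fell from 217 and 219 to 132, 134 and 117 CPM (log2 change -0.77 ± 0.0636, adjusted p = 3.88e-05), yet DMSO 16x was lower at 78.5 CPM, and the gene lost its call with the DMSO libraries in the reference (adjusted p = 0.37). Lower calls numbered 1 without parental A and 1 without parental B, and higher calls 7 and 4.

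Of 14 genes that FOXO factors induce, 6 were called lower and 3 higher (median -0.14). Btg1, an antiproliferative gene, fell from 76.9 and 75.7 to 49.2, 48.4 and 42.2 CPM (log2 change -0.71 ± 0.0598, adjusted p = 9.51e-06), below DMSO 16x at 58.8 CPM. Sesn3 rose from 19.6 to 25.0 CPM and Bcl2l11, the gene of the pro-death protein BIM, from 68.1 to 82.1 CPM, so the list did not move as a block. Lower calls were 5 without parental A and 4 without parental B. Among 14 genes of ERK output and feedback, 2 were called higher and 1 lower, where 13.7% and 12.8% of all genes tested were. Dusp6 (272 against 279 CPM), Etv5 (241 against 246 CPM) and Spred1 (228 against 229.7 CPM) were not called. Spry1, a feedback inhibitor, rose from 36.7 and 33.7 to 43.9, 41.7 and 43.7 CPM (adjusted p = 0.0913 without parental B), and its relative Spred2 was lower by less, at 72.0 against 64.8 CPM. Without parental B none of the 3 ERK calls was left, and without parental A 1 was.

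**Figure D3:**
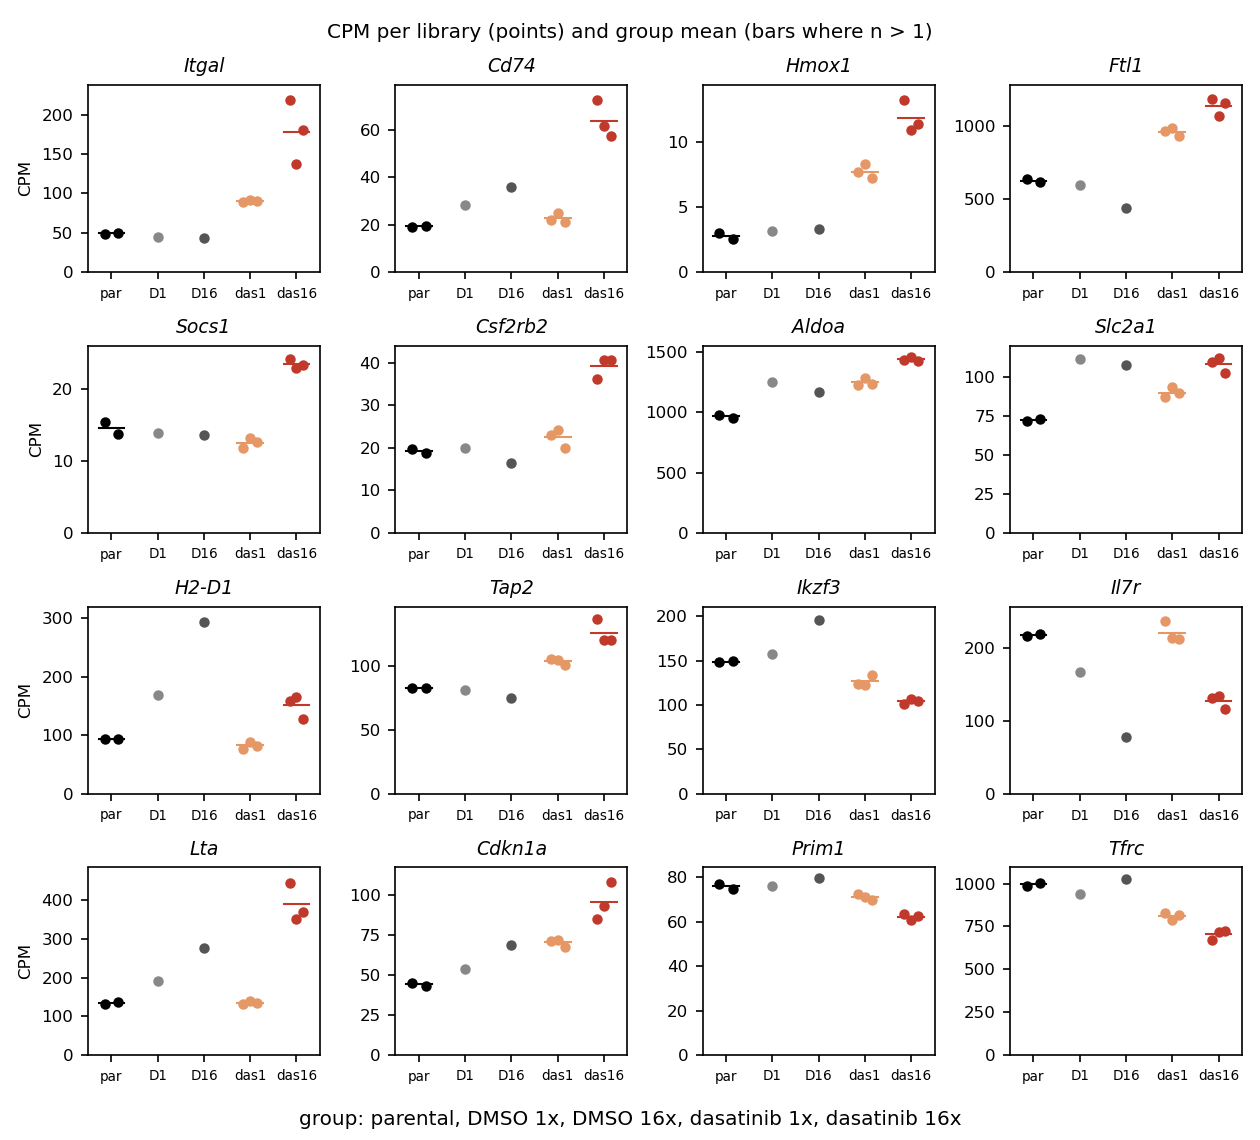
CPM of 16 genes, chosen after their values were seen, in each library (points) with group means as bars where a group has more than 1 library; groups are parental, DMSO 1x, DMSO 16x, dasatinib 1x and dasatinib 16x. Itgal, Hmox1 and Socs1 are higher in dasatinib 16x than in every other group, whereas H2-D1 is highest and Il7r lowest in DMSO 16x.

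The BCL2 family moved in both directions. Bok, a pro-death member, fell from 13.6 and 13.6 to 2.86, 1.64 and 1.65 CPM (log2 change -2.72 ± 0.217, adjusted p = 4.43e-05), with 21.3 CPM in DMSO 16x. The pro-death genes Bak1 (89.8 to 123 CPM, with 122 CPM in DMSO 16x and no call with the DMSO libraries in the reference, adjusted p = 0.0965), Bbc3, which encodes PUMA (13.1 to 18.1 CPM), and Bcl2l11 rose. Bcl2l2, the pro-survival gene of BCL-W, rose from 36.7 and 35.8 to 45.8, 45.1 and 48.4 CPM (log2 change 0.36 ± 0.0495), while Bcl2 (20.6 against 20.5 CPM) and Bcl2l1 (106 against 101 CPM) were not called. Mcl1, another pro-survival gene, was at 224.9 against 209.8 CPM, a call lost under 7 alternatives, leaving out either parental library among them (adjusted p = 0.199 and 0.132). Of 19 p53-induced genes, 4 were called higher and 3 lower, where 13.7% and 12.8% of all genes tested were. Cdkn1a, the cell cycle inhibitor p21, rose from 45.1 and 43.1 to 84.6, 92.8 and 108 CPM (log2 change 1.11 ± 0.0973, adjusted p = 0.000134), above DMSO 16x at 68.5 CPM. Mdm2 (88.5 against 93.5 CPM) and Bax (83.0 against 87.4 CPM) were not called, and Btg2 fell from 11.7 and 12.4 to 4.28, 5.36 and 2.77 CPM. Higher p53 calls numbered 7 without dasatinib 16x A.

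Of 9 transporters of drugs tested, 3 were called higher and 2 lower, where 13.7% and 12.8% of all genes tested were. Abcb1b, a P-glycoprotein gene that pumps dasatinib among other drugs, rose from 57.0 and 60.8 to 75.4, 68.7 and 75.1 CPM (log2 change 0.31 ± 0.0521, adjusted p = 0.00115), with 45.8 CPM in DMSO 16x and 69.5 to 73.1 CPM in dasatinib 1x. Abcc5 fell from 37.6 and 39.2 to 32.0, 31.2 and 29.1 CPM, with 34.6 CPM in DMSO 16x (adjusted p = 0.0643 with the DMSO libraries in the reference), and Abcc1 from 1.64 and 2.27 to 0, 0 and 0.215 CPM. Abcg2, another efflux pump gene, was at 9.03 against 6.84 CPM and was not called, though it was called lower without dasatinib 16x A (adjusted p = 0.00389).

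MHC class I presentation was higher across the list: 12 of 13 genes were called higher and 0 lower, with a median log2 change of 0.45. The peptide transporter genes Tap1 and Tap2 rose alike against the parental line, Tap1 from 62.1 and 61.0 to 97.5, 95.8 and 86.7 CPM and Tap2 from 82.9 and 82.9 to 137, 120.5 and 121 CPM (log2 change 0.60 ± 0.0544 for each). In DMSO 16x, however, Tap1 was at 91.2 and Tap2 at 74.8 CPM, and with the DMSO libraries in the reference Tap1 was not called (adjusted p = 0.09). The immunoproteasome gene Psmb8 rose from 203 and 196 to 259, 245 and 259 CPM, against 162 CPM in DMSO 16x. The heavy chain genes H2-D1 (94.0 and 93.4 against 159, 166 and 129 CPM) and H2-K1 (67.2 and 66.5 against 115, 111 and 88.2 CPM) were higher in DMSO 16x than in any other library, at 294 and 278 CPM. H2-D1 had an adjusted p of 0.0514 without parental A and 0.0609 without parental B, and H2-K1 0.0644 and 0.0797. Against DMSO 16x the median log2 change of the 13 class I genes was -0.06. Higher calls of the list numbered 8 without parental A, 6 without parental B and 3 with the DMSO libraries in the reference. Class I genes are near-identical copies in part, and how shared reads were counted is not given.

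MHC class II presentation rested on few transcripts. Cd74, the invariant chain, rose from 18.9 and 19.5 to 72.7, 61.5 and 57.4 CPM (log2 change 1.73 ± 0.109, adjusted p = 9.53e-06), above DMSO 16x at 35.8 CPM and dasatinib 1x at 20.9 to 24.7 CPM. H2-DMb2, a peptide exchange subunit, rose from 1.06 and 0.909 to 4.9, 3.23 and 3.84 CPM, with 2.44 CPM in DMSO 16x (log2 change against it 0.71). The median log2 change of the tested class II genes was 0.97 against the parental line and 0.08 against DMSO 16x. The class II chain genes H2-Aa and H2-Ab1 were too low to test, and Ciita, their activator, was at 0.285 against 0.141 CPM and not called. Of 8 genes tested, 4 were called higher and 0 lower, and 2 were left without parental B.

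Adhesion and migration genes were called higher in 9 of 23 and lower in 4. Itgal, which encodes one chain of the leukocyte integrin LFA-1, rose from 48.0 and 50.2 to 219, 137 and 180.3 CPM (log2 change 1.86 ± 0.209, adjusted p = 0.00222), while DMSO 1x and DMSO 16x were at 45.1 and 43.5 CPM and dasatinib 1x at 89.0 to 92.1 CPM. Its partner Itgb2 rose less, from 58.6 to 71.2 CPM, with 71.5 CPM in DMSO 16x (log2 change against it -0.01, adjusted p = 0.947). Itga6, a laminin receptor chain, rose from 36.3 and 36.3 to 78.3, 77.7 and 56.6 CPM, with 80.1 CPM in DMSO 16x. Higher calls were 6 without parental A and 6 without parental B, lower calls 1 and 1, and 3 genes were called higher with the DMSO libraries in the reference. Among them was Itgal, and Itga6 (adjusted p = 0.251) and Itgb2 were not.

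DNA replication genes were lower as a group by small amounts, with 26 of 39 called lower, 1 higher and a median log2 change of -0.15. Uhrf1, which guides maintenance methylation to new DNA, fell from 494 and 480.5 to 399, 412 and 390.1 CPM (log2 change -0.28 ± 0.0343, adjusted p = 0.000131). Gins2, of the replicative helicase, fell from a mean of 67.3 to 52.3 CPM, and Prim1, a primase subunit, from 77.2 and 74.8 to 63.3, 60.9 and 62.6 CPM. In DMSO 16x, Uhrf1 was at 528 CPM and Prim1 at 79.5 CPM, while Gins2 (54.7 CPM) was near the dasatinib lines. The exception was Pole2, a polymerase epsilon subunit (44.9 to 56.1 CPM), which stood at 200.7 CPM in DMSO 16x and was not called with the DMSO libraries in the reference (adjusted p = 0.318). Lower calls were 14 without parental A and 15 without parental B. Against DMSO 16x the median log2 change of the 39 was -0.21. Against dasatinib 1x, where 6.45% of all genes were called lower and 7.29% higher, 26 of the 39 were lower and 1 higher.

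Mitotic genes followed in part: 12 of 28 were called lower and 1 higher (median -0.09). Cenpe, a kinetochore motor, fell from 291 and 292 to 232, 242 and 247 CPM, and Cdc25b, a phosphatase that activates CDK1, from 127 and 120.5 to 101, 108 and 101 CPM. Ccna2 (499.5 against 493 CPM) and Plk1 (218 against 218 CPM) were not called, and lower calls were 6 without parental A and 7 without parental B. Among 19 G1 regulators, 4 were called higher and 4 lower, where 13.7% and 12.8% of all genes tested were. The cyclin genes Ccnd2 and Ccnd3 (1998.5 to 2151 CPM, a call lost without dasatinib 16x A or either parental library, adjusted p = 0.07, 0.0993 and 0.254) and the inhibitor gene Cdkn1a rose, while E2f2 (214 to 174 CPM) and Cdk2 (136 to 118 CPM) fell. Higher calls were 2 without parental A and 2 without parental B.

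**Figure D4:**
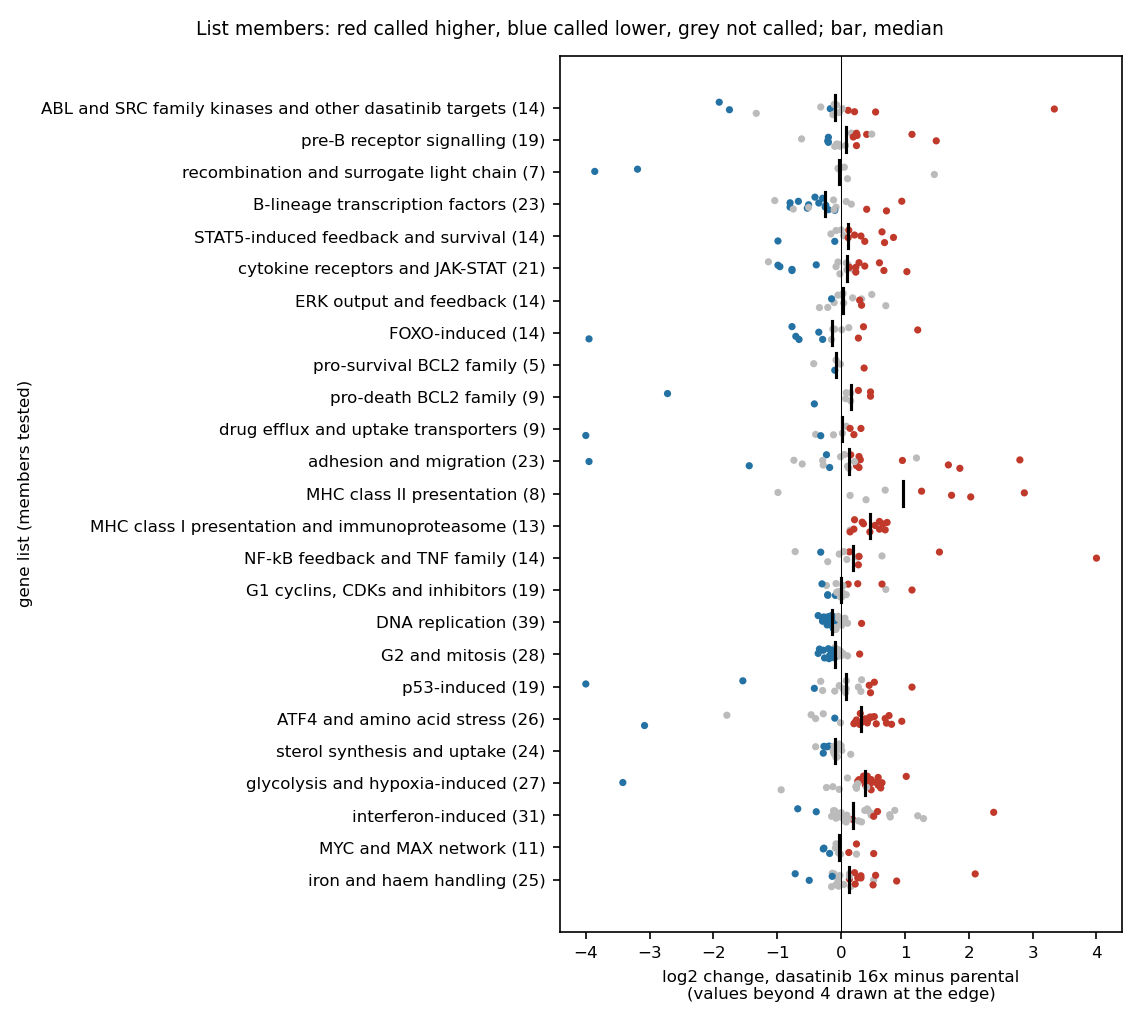
Log2 change (dasatinib 16x minus parental) of each tested member of the 25 pathway lists; red members were called higher, blue lower, grey neither, and the black bar is the list's median. Members of MHC class I (median 0.45), glycolysis (0.38) and amino acid stress (0.31) lie mostly to the right, and those of DNA replication (-0.15) and B-lineage factors (-0.25) to the left.

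Glycolysis and hypoxia-induced genes were called higher in 17 of 27 and lower in 1, with a median log2 change of 0.38. Aldoa, an aldolase, rose from 978 and 951 to 1432, 1453 and 1425 CPM (log2 change 0.58 ± 0.0327, adjusted p = 7.01e-07), and the phosphofructokinase gene Pfkp from 212 and 214 to 343.5, 328 and 327 CPM. Slc2a1, the glucose transporter GLUT1, rose from 71.7 and 73.0 to 109.9, 113 and 102 CPM. DMSO 16x was close to the dasatinib lines for Slc2a1 (108 CPM), Gpi1 (760.4 in dasatinib 16x, 756 CPM in DMSO 16x) and Pgk1 (log2 change against it -0.06), and above them for Ldha (2169 CPM, against 1855 to 2006 CPM). Hk1, a hexokinase, differed: it rose from 41.8 and 38.1 to 91.5, 81.1 and 70.5 CPM and was at 15.1 CPM in DMSO 16x. Leaving out any of the 5 libraries left 17 or 18 higher calls, but 3 with the DMSO libraries in the reference. Slc2a3, another glucose transporter, fell from 0.694 to 0.0607 CPM and was at 21.9 CPM in DMSO 16x.

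Genes of ATF4 and amino acid stress rose broadly. ATF4 is translated when the kinase GCN2 or its relatives sense stress such as a lack of amino acids, and it turns on genes of amino acid synthesis and uptake. Of 26 tested, 19 were called higher and 2 lower (median 0.31). With C/EBP partners ATF4 binds the composite element TGATGNAA, a letter pattern present on either strand of the 250 bases before the start in 1134 (3.45%) of 32851 promoters and in 1056 (3.91%) of 27025 genes. It was in 6 of the 24 list genes with an entry and in 4 of the 16 higher-called ones among them, the same share. The other 2 were Slc7a11, too low to test, and Vldlr, which was not called (a mean of 14.8 against 27.9, 2.06 and 1.91 CPM, and lower without dasatinib 16x A, adjusted p = 1.95e-07). The 250 bases of the 4 are shown from RefSeq, GRCm38.p6, 5′ to 3′ on the gene's strand and ending at the start, to let the values be read beside the element, which is in capitals:
Asns (chr6:7693210-7693459, minus strand): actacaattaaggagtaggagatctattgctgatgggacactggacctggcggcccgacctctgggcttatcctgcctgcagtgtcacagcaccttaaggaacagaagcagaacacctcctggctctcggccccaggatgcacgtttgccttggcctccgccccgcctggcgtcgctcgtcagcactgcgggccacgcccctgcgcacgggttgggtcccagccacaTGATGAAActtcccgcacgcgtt
Nupr1 (chr7:126625471-126625720, minus strand): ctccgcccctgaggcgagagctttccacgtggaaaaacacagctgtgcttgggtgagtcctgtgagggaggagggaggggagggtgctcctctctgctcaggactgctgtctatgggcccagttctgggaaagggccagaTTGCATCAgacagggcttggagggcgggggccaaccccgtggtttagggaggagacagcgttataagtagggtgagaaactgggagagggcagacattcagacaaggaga
Chac1 (chr2:119350992-119351241, plus strand): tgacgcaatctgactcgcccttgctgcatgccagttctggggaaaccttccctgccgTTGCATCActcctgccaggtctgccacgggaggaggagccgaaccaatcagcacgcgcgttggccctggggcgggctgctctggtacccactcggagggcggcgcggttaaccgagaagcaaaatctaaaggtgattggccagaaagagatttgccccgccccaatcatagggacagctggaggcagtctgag
Atf3 (chr1:191183334-191183583, minus strand): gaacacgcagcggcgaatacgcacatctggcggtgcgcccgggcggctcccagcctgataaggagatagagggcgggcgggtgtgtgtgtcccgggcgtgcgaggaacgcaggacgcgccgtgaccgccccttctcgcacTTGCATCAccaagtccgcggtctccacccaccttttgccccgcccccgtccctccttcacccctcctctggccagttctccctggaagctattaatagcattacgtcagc

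The element lies on the gene's strand in Asns and on the other strand in Nupr1, Chac1 and Atf3, and a match of letters is no evidence of binding. Asns, asparagine synthetase, was at 380.5 and 368 CPM in the parental line and 494.5, 447 and 459 CPM in dasatinib 16x (log2 change 0.32 ± 0.042, adjusted p = 0.000229), with 493 CPM in DMSO 16x. Nupr1, a stress-induced nuclear protein, rose from 12.7 and 13.5 to 22.7, 21.5 and 19.0 CPM (adjusted p = 0.000232), with 24.9 CPM in DMSO 16x. Chac1, which degrades glutathione, was at 25.9 and 24.7 against 38.5, 32.2 and 30.3 CPM, and the transcription factor gene Atf3 at 9.78 and 8.92 against 20.6, 16.0 and 11.7 CPM. The dasatinib 16x libraries lay above both parental ones for all 4 genes, as for every gene called higher and for 27.4% of all genes tested. The call of Chac1 was lost without parental A (adjusted p = 0.0687) or parental B (0.128), and that of Atf3 without dasatinib 16x B (0.0774), parental A (0.122) or parental B (0.197), with no filter (0.0916), under limma-voom (0.0852) and with only the 5 libraries (0.0929).

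The members given next kept their calls whichever library was left out, as Asns and Nupr1 did. Slc7a5 and Slc3a2, which pair as a transporter of large amino acids, rose from 742 and 732 to 1037, 949 and 992 CPM and from 324 and 314 to 458.5, 416 and 430 CPM. Phgdh, the first enzyme of serine synthesis, rose from 645 and 635 to 779.5, 748 and 747 CPM, above DMSO 16x (656 CPM). Atf5, a stress-induced transcription factor, rose from 73.1 and 75.7 to 137, 107 and 121 CPM (log2 change 0.71 ± 0.0926, adjusted p = 0.00121), with 115 to 119 CPM in dasatinib 1x and 43.0 CPM in DMSO 16x. Ddit4, an inhibitor of mTORC1, rose from 75.7 and 74.3 to 109.6, 109 and 109.7 CPM, with 107.5 CPM in DMSO 16x (log2 change against it 0.03, adjusted p = 0.73). Stc2, a secreted stanniocalcin, fell from 2.08 and 1.82 to 0.198, 0.269 and 0.215 CPM. Higher calls were 11 without parental A, 11 without parental B and 12 with the DMSO libraries in the reference. Under that last setting Slc7a5 (adjusted p = 0.0616), Ddit4 (0.13), Asns (0.234) and Nupr1 (0.329) were not called.

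Iron and haem genes included clear rises. Hmox1, the enzyme that breaks down haem and releases its iron, rose from 2.96 and 2.56 to 13.2, 10.9 and 11.4 CPM (log2 change 2.10 ± 0.14, adjusted p = 1.66e-06), with 3.33 CPM in DMSO 16x and 7.19 to 8.28 CPM in dasatinib 1x. Ftl1, the light chain of the iron store ferritin, rose from 635 and 616.5 to 1189.5, 1072 and 1160.3 CPM (log2 change 0.87 ± 0.0455, adjusted p = 3.67e-07), with 440.2 CPM in DMSO 16x. Tfrc, the transferrin receptor for iron uptake, fell from 987 and 1004 to 673.5, 719 and 723.5 CPM (log2 change -0.50 ± 0.0382, adjusted p = 5.48e-06), with 1025 CPM in DMSO 16x. For these 3 genes no dasatinib 16x value overlapped either DMSO library, and no called gene overlapped the parental libraries. In all, 10 of 25 genes were called higher and 3 lower, and higher calls were 5 without parental A and 3 without parental B. Ferritin genes have processed copies in the genome, so part of their reads is uncertain.

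Sterol synthesis and uptake genes were called lower in 5 of 24 and higher in 0 (median -0.09). Idi1, an isomerase of isoprenoid synthesis, fell from 79.4 and 80.4 to 64.1, 66.7 and 68.2 CPM (log2 change -0.27 ± 0.0431, adjusted p = 0.000843). DMSO 16x stood above the parental line, at 91.1 CPM. Against DMSO 16x the median log2 change of the 24 was -0.3. Lower calls against the parental line were 8 without dasatinib 16x B.

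By chromosome, the share of genes called higher was largest on chromosome 5. Of its 736 tested genes, 29.2% were called higher and 8.29% lower, 65.5% had a positive log2 change, and the median was 0.076. Medians of the other autosomes and X ran from -0.024 to 0.026, with 9.92% (X) to 17.7% (chromosome 14) called higher and 9.87% (chromosome 14) to 17.3% (chromosome 4) called lower. Against DMSO 16x the median of chromosome 5 was 0.538 and that of chromosome 18 was 0.504, whereas against dasatinib 1x chromosome 5 stood at 0.006. Of the genes named here, Micall2, Gpr12, Enam, Igj, Ncf1, Lat2, Abcb1b, Gnai1, Yes1 and Mlxip lie on chromosome 5 and Cd74 on chromosome 18. The log2 changes of Abcb1b (0.67), Mlxip (0.54) and Cd74 (0.84) against DMSO 16x stand beside those chromosome medians. Chromosomes were taken by symbol from the RefSeq table for 11312 of the genes tested, and no part of the shift in single genes was tested.

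**Figure D5:**
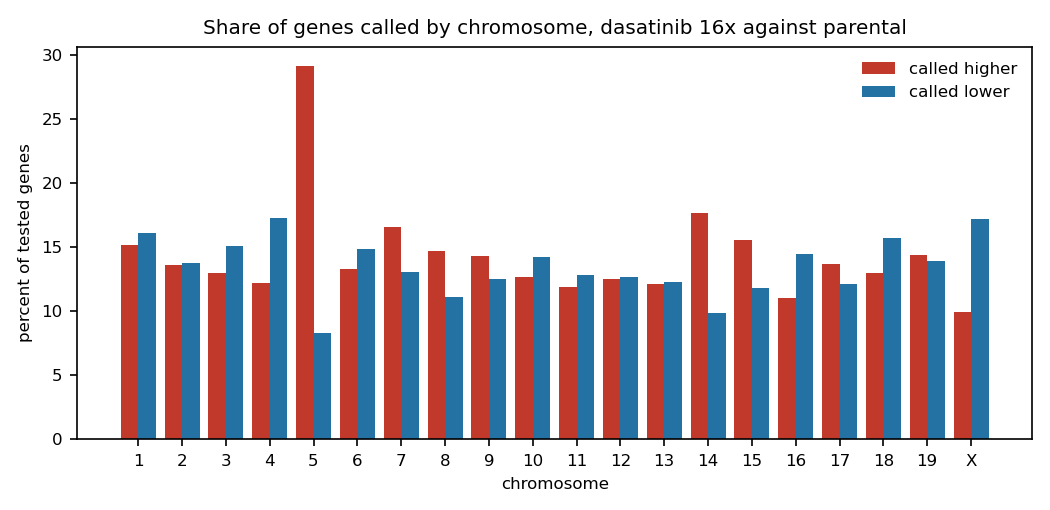
Percent of tested genes on each chromosome called higher (red) or lower (blue) in dasatinib 16x against parental; chromosome Y, with 3 tested genes, is not drawn. Chromosome 5 has 29.2% called higher and 8.29% lower.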

How the data were processed

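Per the submitters' processing notes, the tools were HTSeq 0.6.1, TopHat2 2.0.12, BWA 0.7.10, SAMtools, DESeq, Trimmomatic 0.33 and CASAVA 1.7.0, and the build mm9. The authors deposited counts per gene, not normalized. Whether counting used strand is not given in the sources used here. Reads of overlapping or antisense genes therefore cannot be told apart. The table lists 29955 genes. A count was present for 18621 in these libraries, and 12273 reached the filterByExpr minimum count of 10 in the 5 libraries compared. These held 99.95% to 99.98% of each library's counts.

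Tests used R 4.3.3 and edgeR 4.0.16 (quasi-likelihood, robust, TMM scaling). All 10 libraries were fitted as 5 groups (biological coefficient of variation 7.21%, 5 residual degrees of freedom), with Benjamini-Hochberg adjustment at 0.05. The same fit gave the contrasts with DMSO 16x, a single library assumed to vary like the others, and with dasatinib 1x. They share the dasatinib 16x libraries with the main contrast.

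Alternatives were DESeq2 1.42.0, limma-voom (limma 3.58.1), RLE scaling, no filter, a 2-fold threshold, a replicate block, only the 5 libraries, the parental and DMSO libraries as 1 class, and each library left out. Limma-voom with a weight per group was added after seeing the data. On simulated counts with 200 changed genes among 12058, this comparison recovered 67.2% at 1.5-fold, 70.1% at 2-fold and 92.4% at 4-fold, with 14 false calls.

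Named genes are the 12 highest and 12 lowest called genes with a mean of at least 5 CPM in 1 group and no overlap, the 2 called members of each list with the smallest p, and Abl1, 78 in all. Results of some of these genes are not reported here. Other list members are named after their values were seen. The comparison, the 31 lists (25 pathways, 6 marker sets) and the tests were chosen with earlier results of these data known, and the search for the ATF4 element was added after seeing the data.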

Additional observations from a re-analysis of the deposited data

How the results depend on the processing

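Calls against the parental line numbered 3248 with RLE scaling, 3302 with no filter, 2680 with DESeq2, 3217 with limma-voom, 3878 with a weight per group and 2531 with only the 5 libraries. At a 2-fold threshold there were 250 (80 higher and 170 lower), and with the parental and DMSO libraries as 1 class 1959 (951 and 1008). Leaving out 1 library gave 1401 to 3715 calls, 732 to 1937 higher and 669 to 1778 lower, with the lowest counts without a parental library. Against DMSO 16x, 4354 calls became 405 at 2-fold and 4241 to 4743 with a library left out. Against dasatinib 1x, 1687 calls became 67 at 2-fold and 952 to 2066 with a library left out, the lowest without dasatinib 1x A (952) and C (973). The replicate block gave 2740 calls against the parental line and 1541 against dasatinib 1x. Replicate letters are shared by label, and whether a letter follows the same culture across steps is not given in the sources used here. Deviations of same-letter libraries correlated at 0.012 and 0.0217 with the parental line and at 0.0583, 0.024 and 0.0461 with dasatinib 1x. In that last check each dasatinib 16x library correlated best with its own letter.

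Of the 78 named genes, 47 were called under every alternative but the 2-fold threshold, and 11 lost the call without some library. With the parental and DMSO libraries as 1 class Lat2 turned to a log2 change of -0.29 (adjusted p = 0.816, edgeR), and the median of the mature B and plasma cell markers to -0.54; DMSO 16x was above dasatinib 16x for Lat2. With 2 parental libraries, and with small changes recovered least often on simulated counts, a gene that was not called may still differ.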

Other observations

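Genes of NF-kB feedback and the TNF family were called higher in 5 of 14 and lower in 1. Lta, the cytokine lymphotoxin alpha, rose from 130.4 and 137 CPM in parental A and B to 445.5, 352.5 and 368.5 CPM in dasatinib 16x A, B and C (log2 change 1.54 ± 0.105, adjusted p = 0.00012 by edgeR), with 275 CPM in DMSO 16x and 131.5 to 140.4 CPM in dasatinib 1x. Tnf (22.6 against 27.1 CPM) and Nfkbia (34.7 against 33.9 CPM) were not called. Traf1, a TNF receptor adaptor, had 37 counts in dasatinib 16x against 1 in the parental line, a ratio of 20.5 (95% counting interval 3.46 to 832). Its adjusted p was 0.00845 by edgeR and 0.0526 by DESeq2. The log2 change of 4.08 became 3.43 without parental A and 6.47 without parental B. The higher calls came down to 1, Lta, without parental A or without parental B. Of 31 interferon-induced genes, 4 were called higher and 2 lower, neither above the shares of all genes tested (13.7% and 12.8%). Igtp, an interferon-induced GTPase, rose from 8.79 and 10.1 to 14.3, 13.4 and 14.5 CPM, against 7.43 CPM in DMSO 16x, while Ifit2 fell from 33.7 and 34.8 to 27.6, 25.7 and 25.4 CPM, with 21.9 CPM in DMSO 16x (adjusted p = 0.323 with the DMSO libraries in the reference). Irf1 (20.8 against 19.3 CPM) was not called. Higher interferon calls were 2 without parental A and 1 without parental B. Of 11 genes of the MYC and MAX network, 3 were called higher and 3 lower, beside the same shares of all genes. Without either parental library 0 were higher and 1 lower. Myc itself was at 368 against 399.9 CPM (log2 change 0.12), with an adjusted p of 0.0231 that became 0.145 without parental A and 0.142 without parental B. Mlxip and Mlx, which pair as glucose-sensing factors, moved apart: Mlxip fell from 160 and 166 to 139, 129 and 138 CPM, with 92.8 CPM in DMSO 16x, and Mlx was at 39.2 against 46.3 CPM (adjusted p = 0.0529 without parental A and 0.1 without parental B).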
